A study of Mus musculus with 7 samples.

Results

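The integrin, laminin and basement membrane genes of mouse skeletal muscle were followed through 7 droplet single-cell RNA libraries. Members were the gene rows named Itga or Itgb with a number or letter, Lama, Lamb or Lamc with a number, Nid1, Nid2, Hspg2 or Fn1, if they held at least 10 unique molecular identifiers (UMIs, each standing for 1 captured RNA molecule) over the 7 libraries. Of 27998 gene rows, 43 matched and 40 reached that number, and Itgad (1 UMI), Itgb2l (1 UMI) and Lama1 (2 UMIs) did not. The members are 18 rows of integrin alpha subunits, 8 of integrin beta subunits, 10 of laminin chains and 4 others (Nid1, Nid2, Hspg2 and Fn1). Itgam is present as 2 rows with separate gene identifiers, which overlap in the annotation.

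All libraries came from mice labelled C56BL/6J. Total muscle (2 libraries) held live sorted cells from the hindlimbs of mice aged 3 months. Its titles carry wt (wild type), and the titles of the other groups name no genotype. Homeostatic muscle stem cells (MuSCs, 2 libraries) were sorted from uninjured muscle, with no age given in the labels. Injured MuSCs (2 libraries) were sorted from TE-EDL muscles 60 h after 2 µM notexin, a snake venom toxin that destroys muscle fibres. Primary myoblasts (1 library) were MuSC-derived cells from the hindlimbs of mice aged 3 months, grown for 4 passages by one label and 4 to 5 by another, on collagen plates, in medium that held 10% horse serum and bFGF at 2.5 ng/µl. Collagen is itself an integrin ligand, and serum carries others. Homeostatic and injured cells therefore also differ in the muscles they came from, as far as the labels say, and this cannot be told apart from the injury. Nothing in the labels says that libraries of a group came from separate animals, so p-values measure the spread between these libraries only.

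Integrins are surface receptors made of 1 alpha and 1 beta subunit that tie a cell to its matrix and signal in both directions across the membrane. Laminins are heterotrimers of an alpha, a beta and a gamma chain that polymerise into the basement membrane, where nidogens (Nid1, Nid2) and perlecan (Hspg2) link them to collagen IV. A MuSC lies between the muscle fibre and its basement membrane and holds on to laminin chiefly through the Itga7 and Itgb1 receptor, and loss of Lama2 or Itga7 causes muscular dystrophy.

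Myogenic-like cells, found by clustering with the members left out, numbered 90 and 127 in total muscle, 1297 and 1064 in homeostatic, 1209 and 2115 in injured libraries and 4226 in primary myoblasts. Their UMIs summed to 322665 and 448339, to 3274885 and 2900444, to 8922859 and 6854303, and to 108197507. Levels are given on the counts-per-million scale (CPM), relative to all UMIs of these cells in a library, and 3 UMIs in a library, the limit that a count of 0 allows, came to 9.30 and 6.69 CPM in total muscle, 0.916 and 1.03 in homeostatic, 0.336 and 0.438 in injured libraries and 0.0277 in myoblasts. The injured libraries shared 253 cell barcodes (19.5% and 11.2% of their barcodes), whereas every other pair of libraries shared at most 16. All 4 clusters made mostly of injured cells had mt-Atp6 among their top 10 genes, next to ribosomal pseudogene rows, and the part of this in the results below was not tested. A further cluster of low-UMI cells, with 198 and 300 cells in the homeostatic libraries among its 501, stayed unnamed and was left out. In all, 4 members had fewer than 10 UMIs in all myogenic-like cells together.

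The promoters of 5 members are printed first because these members open the comparison after injury. Itga3, Itgb6 and Lamb3 had no UMI in homeostatic myogenic-like cells and were called higher, and Lama2 and Lamb2 were called lower. Each is the RefSeq window of 300 bases (build GRCm38.p6) around a gene start, 5′ to 3′ on the gene's strand. Itga3 is on chr11:95069149-95069448 (minus strand, an internal start), Itgb6 on chr2:60722554-60722853 (minus) and Lamb3 on chr1:193301744-193302043 (plus). Lama2 is on chr10:27616893-27617192 (minus, also an internal start) and Lamb2 on chr9:108479612-108479911 (plus). The annotated Lama2 gene start, 27619758 in GENCODE M21, lies outside the Lama2 window. Capitals mark any match to 3 motifs, searched on both strands: TGANTCA (AP-1, with any base allowed at N), CAGCTG (an E-box, as bound by myogenic bHLH factors) and GGAATG (TEAD). No window shown holds matches to more than 1 of them.
Itga3: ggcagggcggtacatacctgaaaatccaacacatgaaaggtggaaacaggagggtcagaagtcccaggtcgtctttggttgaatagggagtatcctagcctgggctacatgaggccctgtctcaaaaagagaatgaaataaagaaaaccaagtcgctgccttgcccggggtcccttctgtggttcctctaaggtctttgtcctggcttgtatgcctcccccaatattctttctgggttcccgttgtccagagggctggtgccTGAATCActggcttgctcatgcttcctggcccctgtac
Itgb6: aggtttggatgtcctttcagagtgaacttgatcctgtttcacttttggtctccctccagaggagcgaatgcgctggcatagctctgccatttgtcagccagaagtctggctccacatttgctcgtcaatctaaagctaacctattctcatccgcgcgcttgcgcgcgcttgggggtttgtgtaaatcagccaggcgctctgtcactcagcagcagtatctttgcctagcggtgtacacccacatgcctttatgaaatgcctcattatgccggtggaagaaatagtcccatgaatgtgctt
Lamb3: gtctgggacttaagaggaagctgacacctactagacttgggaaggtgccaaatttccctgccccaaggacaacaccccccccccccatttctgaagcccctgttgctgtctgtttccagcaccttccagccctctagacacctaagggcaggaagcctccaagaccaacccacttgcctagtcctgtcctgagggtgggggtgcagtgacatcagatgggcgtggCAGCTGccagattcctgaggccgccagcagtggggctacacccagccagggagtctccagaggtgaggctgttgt
Lama2: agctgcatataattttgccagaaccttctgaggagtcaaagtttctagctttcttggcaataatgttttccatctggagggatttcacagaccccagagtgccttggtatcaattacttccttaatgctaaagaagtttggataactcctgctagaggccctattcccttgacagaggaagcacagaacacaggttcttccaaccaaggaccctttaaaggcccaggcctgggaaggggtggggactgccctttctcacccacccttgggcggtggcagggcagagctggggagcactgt
Lamb2: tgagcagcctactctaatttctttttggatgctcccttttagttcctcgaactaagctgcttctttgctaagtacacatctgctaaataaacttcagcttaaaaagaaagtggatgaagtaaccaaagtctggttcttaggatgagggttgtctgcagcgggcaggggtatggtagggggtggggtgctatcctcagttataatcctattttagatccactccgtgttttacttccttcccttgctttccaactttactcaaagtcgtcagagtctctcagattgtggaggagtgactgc
The internal Itga3 start carried TGANTCA (as TGAATCA) and the Lamb3 window carried CAGCTG, while the Itgb6, Lama2 and Lamb2 windows held none of the 3 motifs. A second Lamb3 window, which overlaps the one shown, held GGAATG. A further Itga3 window, which spans the annotated gene start (95076801 in GENCODE M21), held none of the 3 motifs, and neither did a further Itgb6 window. Entries were found for 25 member symbols. TGANTCA was in 3 of them (12%) against 8.97% of 27025 genes, CAGCTG in 8 (32%) against 18.3%, and GGAATG in 4 (16%) against 16.6%. A match describes these letters only. Itga7 and Lamc1 are not in the promoter table.

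Of 24 members with enough counts to test, 15 were called lower and 6 higher in injured than in homeostatic MuSCs at an adjusted p under 0.05 (edgeR quasi-likelihood test, 2 libraries against 2). Over all 10668 genes tested, 36.8% were called lower and 38.7% higher (75.5% in all), so calls were common everywhere in this comparison. The median log2 difference was -1.49 over the tested members and 0.04 over all genes. Levels are shares of a library's UMIs, so less of a gene's RNA and more RNA of other genes cannot be told apart. Folds and log2 differences come from the fit and include its scaling factors, unlike the CPM values.

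Among the laminin chains, 6 of 9 tested fell and 2 rose. Lama2, the laminin alpha chain of the muscle fibre basement membrane, measured 47.6 and 39.3 CPM in the homeostatic libraries and 3.70 and 4.96 CPM in the injured ones. This was an 8.25-fold fall (log2 difference -3.05 ± 0.24 SE, adjusted p = 1.01e-08), and the groups did not overlap. Its partner chain Lamc1, the gamma chain of most laminins, fell from 98.0 and 92.4 CPM to 15.6 and 13.9 CPM (log2 difference -2.39 ± 0.17 SE). Lamb2, the beta chain enriched at the neuromuscular junction, fell from 26.6 and 23.4 CPM to 2.47 and 1.90 CPM (log2 difference -3.19 ± 0.27 SE). Lama2, Lamb2 and Lamc1, which can form 1 trimer, were thus lower by 5.24-fold to 9.13-fold.

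The less abundant chains moved in both directions. Lama3, an epithelial laminin alpha chain, fell from 14 and 20 UMIs in the homeostatic libraries to 1 and 0 in the injured ones, and Lamc3 from 22 and 10 UMIs to 6 and 8 despite the greater depth of the injured libraries. Lamb3, by contrast, had no UMI in either homeostatic library and 23 and 32 UMIs in the injured ones (2.58 and 4.67 CPM), which makes it at least 7.18-fold higher in CPM and 8.83-fold with the scaling factors, with 3 UMIs over the homeostatic group taken as the floor (adjusted p = 8.14e-05). Lamb1 rose from 5.19 and 4.48 CPM to 7.62 and 6.86 CPM (log2 difference 0.88 ± 0.31 SE, adjusted p = 0.018), and 7 of 16 alternatives ended that call. Lama5 did not pass the test (10.4 and 6.55 CPM against 6.84 and 5.54 CPM), and its libraries overlapped.

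Of 8 integrin alpha subunits tested, 4 fell and 2 rose. Itga7, the alpha subunit of the laminin receptor of MuSCs and fibres, measured 68.1 and 56.5 CPM in the homeostatic libraries and 76.99 and 77.3 CPM in the injured ones (log2 difference 0.60 ± 0.16 SE, adjusted p = 0.0024). Its call rests on the scaling between libraries, which added 0.30 to the log2 differences of this comparison: without scaling factors the log2 difference was 0.30 with an adjusted p of 0.088. Its reads may also be shared with Gm26947 and Stx5a, which have near-identical transcript ends. Itga5, the alpha subunit of the main fibronectin receptor, fell from 20.5 and 31.0 CPM to 8.63 and 6.27 CPM (2.75-fold). Itga11, a collagen receptor subunit, went from 16 and 19 UMIs to 1 and 3, Itga8 from 19 and 14 UMIs to 0 and 1, and Itga2b, the platelet fibrinogen receptor subunit, from 12 and 14 UMIs to 6 and 6. Itgav, which pairs with several beta subunits in receptors for vitronectin and latent TGF-beta, measured 47.9 and 46.5 CPM against 32.0 and 39.2 CPM and did not pass the test, although it was called lower without scaling factors (adjusted p = 0.044).

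Itga3, a laminin receptor subunit known from epithelia, had the highest lower bound of the 3 members without a UMI in homeostatic myogenic-like cells. Among myogenic-like cells, it had no UMI in either homeostatic library and 101 and 80 UMIs (11.3 and 11.7 CPM) in the injured ones. This made it at least 23.6-fold higher in CPM and 29.1-fold with the scaling factors (adjusted p = 1.13e-07). Over all barcodes, Itga3 had 0 and 2 UMIs in the homeostatic libraries and 105 and 82 in the injured ones. The row does hold counts in uninjured muscle, since endothelial-like cells of total muscle measured 18.5 and 21.6 CPM. A UMI of Itga3 was seen in 7.61% and 3.69% of injured myogenic-like cells and in none of 1297 and 1064 homeostatic ones. With every cell thinned to 1000 UMIs and shallower cells left out (115 and 88 homeostatic cells, none and 153 injured cells), the shares were 1.32% and 0.867% against 0% with upper limits of 0.312% and 0.377% (exact 95% binomial intervals, counting error only). Fibro-adipogenic-like cells, at a median of 5066 UMIs per cell against 2467 to 7337 in the sorted libraries, also held none in 1236 cells (upper limit 0.298%).

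Of 3 beta subunits tested, 2 fell and 1 rose. Itgb1, the partner of most alpha subunits listed here, fell from 283 and 313 CPM to 100.2 and 100.7 CPM (2.41-fold, log2 difference -1.27 ± 0.14 SE, adjusted p = 4.46e-07). At 1000 UMIs per cell, 23.4% and 26.2% of homeostatic but 9.76% and 9.63% of injured myogenic-like cells held an Itgb1 UMI, against 3.94% of B-like cells, a type with a low level. Itgb5, a vitronectin receptor subunit, fell from 23 and 28 UMIs to 6 and 4. Itgb6, the epithelial partner of Itgav that activates latent TGF-beta, went from no UMI to 45 and 54 UMIs (5.04 and 7.88 CPM), at least 12.9-fold higher in CPM and 15.9-fold with the scaling factors (adjusted p = 5.46e-06). Itga7 and Itgb1, which form 1 receptor, thus had log2 differences of opposite sign in the same libraries.

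The linker proteins were lower except fibronectin. Nid1 fell from 11.6 and 15.9 CPM to 3.36 and 2.04 CPM, and Nid2 from 33 and 24 UMIs to 2 and 5. Hspg2 fell 1.55-fold, from 66.0 and 57.2 CPM to 31.2 and 33.6 CPM. Fn1, the provisional matrix protein fibronectin, was called higher (3.97 and 1.38 CPM against 3.36 and 7.30 CPM, adjusted p = 0.039), but the libraries overlapped and 8 of 16 alternatives ended the call. Itgam, a myeloid integrin, did not pass the test on the row that was tested. That row is not the one with most macrophage counts in total muscle.

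Markers of other cell types moved with this comparison, and their part in the member results was not tested. The 12 fibro-adipogenic markers summed to 1123 and 1112 CPM in homeostatic and 33.5 and 42.0 CPM in injured myogenic-like cells, of which Gsn gave 642 and 658 CPM, Col3a1 245 and 220 CPM and Dpt 195 and 192 CPM in the homeostatic libraries. Pdgfra, the defining receptor of that type, was at 0.305 and 0 CPM there and at 0.336 and 0.292 CPM in the injured libraries. Pi16 was at 0 in both homeostatic libraries. Dcn, by contrast, fell from 26.3 and 30.7 CPM to 0.672 and 1.46 CPM after injury. Col1a1 was at 10.7 and 3.10 CPM against 0.336 and 1.90 CPM. The 9 mural markers summed to 131 and 130 CPM against 26.6 and 33.1 CPM, most of it Acta2. Other lists were higher after injury: the 8 tenocyte markers summed to 15.0 and 15.2 CPM against 75.5 and 105.5 CPM (1 gene at 0 in each homeostatic and 3 in each injured library), and the mature myofibre markers to 27.2 and 34.8 CPM against 90.9 and 162 CPM. The 6 epithelial markers summed to 0.305 and 0.690 CPM in homeostatic and 21.1 and 16.9 CPM in injured cells, with 5 and 3 of them at 0, beside the higher Itga3, Itgb6 and Lamb3. The endothelial markers summed to between 22.3 and 29.7 CPM in all 4 libraries. The 10 myogenic markers themselves summed to 8384 and 9231 CPM against 1688 and 1999 CPM. Sdc4 gave 4502 and 5289 CPM of the homeostatic sums and 789 and 931 CPM of the injured ones. Myog rose from 2.75 and 0 CPM to 130 and 189 CPM. Myf5 overlapped (207 and 265 CPM against 221 and 333 CPM), and the other markers of that list were lower after injury. When cells were instead gated one by one on a myogenic UMI and no UMI of markers of other cell types such as Ptprc, Pecam1, Pdgfra and Rgs5, 15 members were again called lower and 4 higher, and Lama2 and Itgb1 changed by -3.13 and -1.27 on the log2 scale. The share of all genes called was not counted for gated cells.

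**Figure D1:**
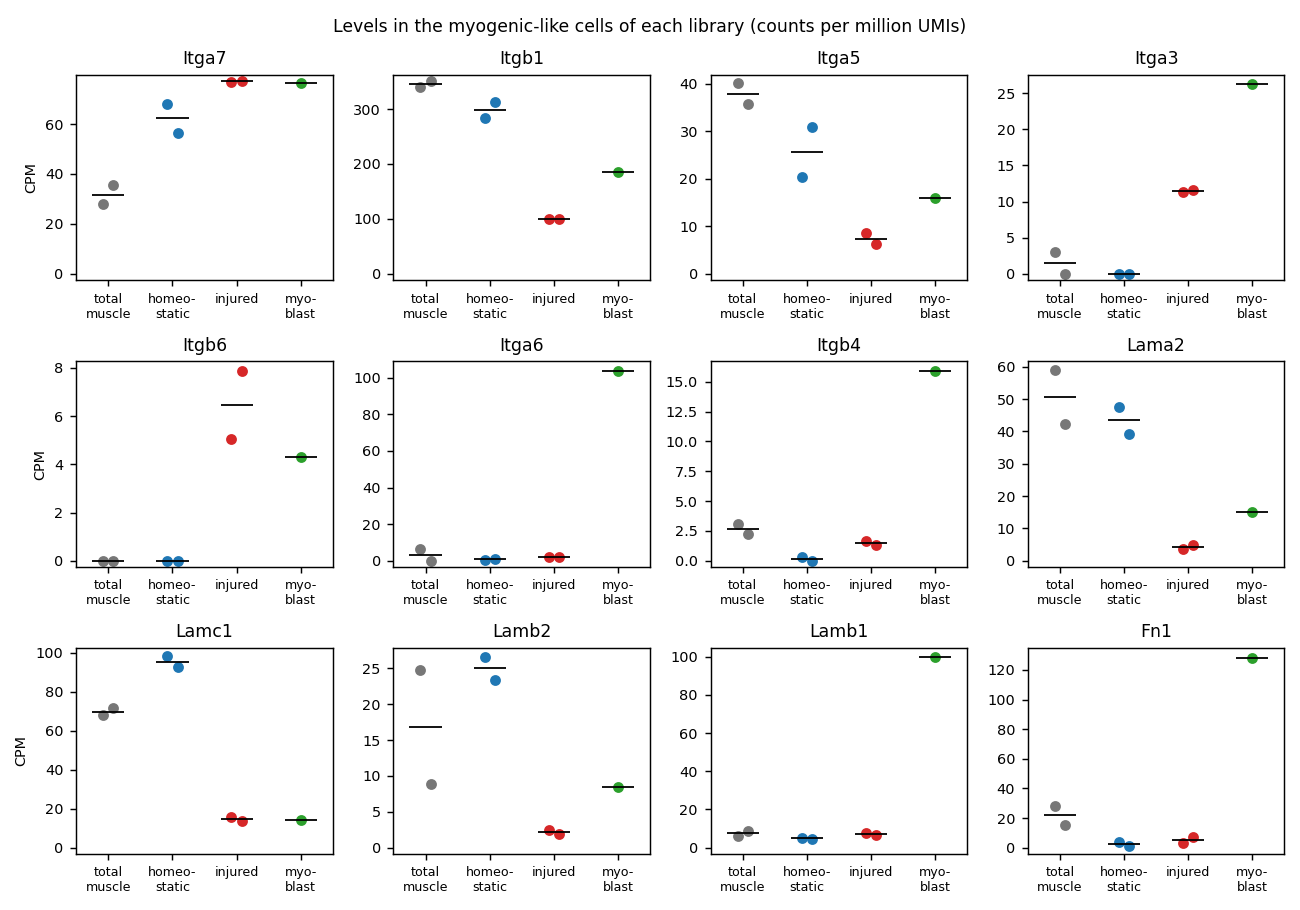
Level of 12 members in the myogenic-like cells of each library, in CPM on linear axes that start near 0, with 1 point per library and a bar at the group mean. Itga3 and Itgb6 are at 0 in both homeostatic libraries, Itga6, Lamb1 and Fn1 stand out in the single myoblast library at 103.7, 99.6 and 128 CPM, and Lama2 and Lamc1 are lowest in the injured and myoblast libraries.

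Other adhesion genes came from 4 lists. Of 25 tested genes of the intracellular adhesion machinery, 10 rose and 8 fell, near the 38.7% and 36.8% of all genes. The 4 called genes with the highest mean level fell: Fermt2 (kindlin, an integrin activator) from 294 to 37.9 CPM on average, Actn4 from 213 to 97.8 CPM, Tln2 (a talin) from 173 to 16.6 CPM and Lims1 from 129 to 38.8 CPM. Of 17 tested dystroglycan and other laminin receptor genes, 3 rose and 8 fell. Dag1, which encodes dystroglycan, fell from 165 to 93.4 CPM, Sntb2 from 230.0 to 6.505 CPM and Utrn (utrophin) from 97.0 to 12.4 CPM, whereas Rpsa, a ribosomal protein once described as a laminin receptor, rose from 1235 to 1927 CPM. Of 11 other basement membrane genes, 8 fell and 1 rose. The collagen IV chains Col4a1 and Col4a2 fell from 154 to 0.825 CPM and from 35.0 to 1.01 CPM, with Sparc (371 to 59.8 CPM) and Ntn4 (36.4 to 10.7 CPM). Of 10 other integrin ligands, 6 fell and 2 rose: Vcam1 fell from 1247 to 88.0 CPM and Cyr61 from 306 to 57.3 CPM, and Spp1 (osteopontin) rose from 2.93 to 490.0 CPM and Thbs1 from 22.7 to 215 CPM. The lists' medians were 0.13, -0.53, -2.87 and -1.96 on the log2 scale, beside 0.04 over all genes.

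**Figure D2:**
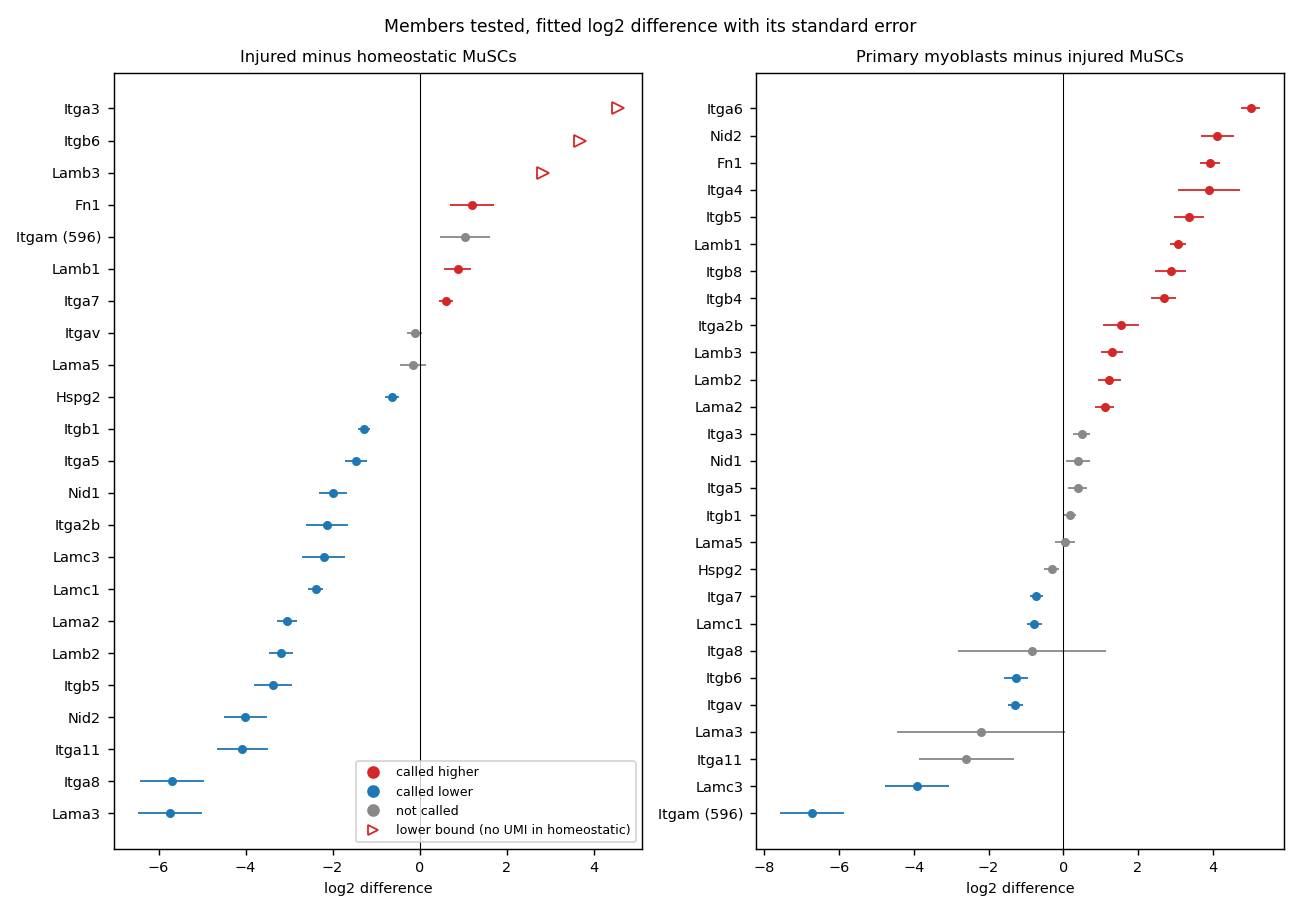
Fitted log2 difference of the tested members, 1 left out, with its standard error, coloured by the call. Injured are set against homeostatic MuSCs (left) and primary myoblasts against injured MuSCs (right). Open triangles are the log2 of the lower bound of the CPM ratio for Itga3, Itgb6 and Lamb3, which had no UMI in homeostatic myogenic-like cells. Most members lie below 0 on the left, where 15 were called lower with the one left out counted, and 12 were called higher on the right.

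The myogenic-like cells of total muscle gave a further uninjured source. Against them, homeostatic MuSCs had 1 of 16 tested members called lower, beside 3.83% of all 7888 genes, and 0 called higher, beside 4.41% (8.24% in either direction). For the 0, edgeR gave 2 higher members at an unadjusted p under 0.05 and DESeq2 called none. Fn1 was the member called, at 3.97 and 1.38 CPM in homeostatic and 27.9 and 15.6 CPM in total muscle myogenic-like cells (log2 difference -2.98 ± 0.62 SE, adjusted p = 0.0038), on 9 and 7 UMIs in total muscle. The call was lost when all filtered cells were used, and without total muscle 1 (adjusted p = 0.064) or either homeostatic library (0.16 and 0.19). Gating cell by cell, which took in 216 and 275 total muscle cells in place of 90 and 127, gave 14 members lower and 1 higher. The share of all genes called was not counted for gated cells. A UMI of any of Pax7, Myf5, Myod1, Myog, Des, Chodl or Cdh15 met the gate. Chodl was at 266 and 297 CPM in tenocyte-like and 207 and 276 CPM in myogenic-like cells of total muscle. Which other types the gate let in was not tested. Gating also turned the sign of the log2 difference of Itgb5 (to -3.60), Lamb2 (-2.19) and Nid1 (-3.36). Fibro-adipogenic markers summed to 1838 and 1842 CPM in the total muscle cells, and Fn1 was at 612 and 547 CPM in the fibro-adipogenic-like cells of the same libraries. Itga7 measured 27.9 and 35.7 CPM against 68.1 and 56.5 CPM in homeostatic cells without passing the test (log2 difference 0.86 ± 0.31 SE, adjusted p = 0.10). With 90 and 127 cells, 15 members had no UMI at all in this source. Of the 4 lists, Tns1 was the single call among 22 intracellular genes, and it was higher in homeostatic cells. Sntb2 and Dag1 were higher and Rpsa lower among 14 other receptor genes. Sparc, Col4a1 and Col15a1 were higher and Ntn4 lower among 8 other basement membrane genes. Of 8 other ligands, 2 rose (Vcam1 and Vtn) and 3 fell, among them Cyr61 and Ctgf.

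Injured MuSCs set against the same total muscle cells gave 3 members higher, beside 32.9% of 9628 genes, and 7 lower, beside 24.1% (57% in either direction), of 16 tested. The comparison shares its injured libraries with the one above. Lama2 (58.9 and 42.4 CPM in total muscle), Lamc1 (68.2 and 71.4 CPM), Lamb2 (24.8 and 8.92 CPM), Itga5 (40.3 and 35.7 CPM), Itgb5 (9.30 and 4.46 CPM), Itgb1 (341 and 350.2 CPM) and Fn1 were called lower in the injured cells, and Itga7, Itga3 and Itgb6 higher. Itga7 was 2.95-fold higher (log2 difference 1.56 ± 0.28 SE, adjusted p = 4.40e-06). Itga3 rests on 1 UMI in total muscle, with a ratio of 8.85 (exact 95% interval 1.57 to 351), and its call was lost without total muscle 2. Itgb6 had no UMI in total muscle and was at least 1.61-fold higher in CPM and 2-fold with the scaling factors, also a call lost without total muscle 2. The Lamb2 call was lost without total muscle 1, and that of Fn1 without total muscle 1 or injured 1, in DESeq2 and with all filtered cells. Low counts underlie the Itgb5 call. Its total muscle level stands on 3 and 2 UMIs, no more than the 3 that a count of 0 allows. Its injured level stands on 6 and 4. Itgb5 was tested in only 8 alternatives, against 16 for Itgb1, and none of the 8 ended the call. Of the 4 lists, 10 genes of the intracellular machinery were called higher and 5 lower of 24 tested, with Actn4, Fermt2, Lims1 and Tln2 again lower. Of the other receptors, 6 rose and 5 fell of 16, among them Rpsa, Dag1 and Large higher and Sntb2 lower. The CPM of Rpsa was 1927 in injured and 1929 in total muscle cells, so its call comes with the scaling factors, which added 0.31 to the log2 differences of members. In the other basement membrane list, 1 of 6 was higher and 5 were lower, including Sparc, Ntn4, Col4a1 and Col4a2. Of 11 other ligands, 2 were higher and 7 lower, with Vcam1, Cyr61 and Ctgf lower and Spp1 higher.

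Primary myoblasts were set against both sorted groups. Against homeostatic MuSCs, 9 of 28 tested members were called higher (39.3% of 12474 genes) and 14 lower (32.3%, or 71.6% in either direction). Against injured MuSCs, 12 were called higher (34.7%) and 6 lower (26.5%, or 61.2% in either direction). Both comparisons use the same single myoblast library, whose spread is assumed to equal that of the sorted groups, so no SE or p here rests on a second myoblast library, and the scaling factors moved the log2 differences by -0.39 and -0.71. Culture, passage and sequencing depth are all specific to that library and cannot be told apart.

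Itga6, the other main alpha subunit for laminin, was at 103.7 CPM in myoblasts, against 0.611 and 1.03 CPM in homeostatic and 2.02 and 1.90 CPM in injured cells. It was 96.9-fold higher than in homeostatic cells (log2 difference 6.60 ± 0.36 SE, adjusted p = 1.10e-14) and 32.3-fold higher than in injured cells. At 1000 UMIs per cell, 9.63% of myoblasts held an Itga6 UMI, against 0.0846% and 0.205% of homeostatic, 0.248% and 0.204% of injured and 0.324% of fibro-adipogenic-like cells. Itga6 has a near-identical transcript end in Gm8113, so reads could be shared between them. Itgb4, the hemidesmosome subunit that pairs only with Itga6, reached 15.9 CPM against 0.305 and 0 CPM in homeostatic and 1.68 and 1.31 CPM in injured cells, and was called higher in both comparisons. Itga3, at 26.2 CPM, was at least 54.0-fold higher than in homeostatic cells in CPM and 41.1-fold with the scaling factors. Against injured cells it did not pass (adjusted p = 0.060) but passed under 8 alternatives, among them no scaling (log2 difference 1.19).

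Other receptor subunits rose from near 0 in myoblasts. Itga4, a fibronectin and Vcam1 receptor subunit, had 341 UMIs (3.15 CPM) against none in homeostatic and 0 and 2 in injured cells, and DESeq2 did not call either difference. Itgb8, a TGF-beta activating subunit, reached 9.15 CPM against 1.22 and 0.345 CPM in homeostatic cells (8.58-fold). Itgb6, at 4.32 CPM, was at least 8.89-fold higher than in homeostatic cells in CPM and 6.76-fold with the scaling factors, but lower than in injured cells (log2 difference -1.26 ± 0.32 SE), a call that ended in DESeq2, without scaling factors, in thinned sums and without injured 2. Itgb5, at 10.7 CPM, did not pass against homeostatic cells (7.02 and 9.65 CPM) and was 10.3-fold above the injured cells. Itgb1, at 185 CPM, lay below the homeostatic libraries (2.12-fold) and did not pass against the injured ones, except without scaling factors, where it was higher by 0.88 on the log2 scale.

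Itga7 depended on the scaling. Its share was nearly the same in myoblasts (76.3 CPM) and injured cells (76.99 and 77.3 CPM), yet it was called lower in myoblasts with scaling factors (log2 difference -0.72 ± 0.18 SE, adjusted p = 0.0015). Without them the difference was -0.02 with an adjusted p of 0.94. Lamc1 (14.1 CPM) was likewise called lower than in injured cells at -0.78 on the log2 scale with and not called at -0.07 without scaling. Itgav, at 23.7 CPM, was called lower than in both other groups.

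On the laminin side, Lamb1 stood at 99.6 CPM in myoblasts, against 5.19 and 4.48 CPM in homeostatic and 7.62 and 6.86 CPM in injured cells (15.6-fold and 8.40-fold higher). Lamb3 reached 14.2 CPM and was at least 29.2-fold above homeostatic cells in CPM and 22.2-fold with the scaling factors. It was 2.47-fold above injured cells, a call lost in DESeq2, in thinned sums and without injured 1. Lama2 (15.0 CPM) and Lamb2 (8.47 CPM) lay between the 2 sorted groups, called lower than in homeostatic and higher than in injured cells, the latter lost for Lama2 in thinned sums and for Lamb2 in DESeq2. Lama3 (2 UMIs of 108197507), Lamc3 (10 UMIs) and Itga8 (6 UMIs) were nearly absent and called lower than in homeostatic cells. Itga11 (7 UMIs) and 1 Itgam row (4 UMIs) were as well.

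The linker proteins parted in myoblasts. Fn1 reached 128 CPM, 35.5-fold above homeostatic (adjusted p = 8.16e-13) and 15.3-fold above injured cells. Nid2, at 12.7 CPM, did not pass against homeostatic cells (10.1 and 8.28 CPM) and was 17.4-fold above injured cells. Nid1 (5.91 CPM) and Hspg2 (42.4 CPM) were called lower than in homeostatic cells and were not called against injured ones. Fn1 and Nid2 have near-identical ends in other genes (Casc4, Gm12953, Gm37065, Ndufab1 and Ythdc1, and Rtraf). The mature myofibre markers summed to 1481 CPM and the mural markers to 994 CPM (983 of it Acta2) in myoblasts, against 27.2 and 34.8 CPM and 131 and 130 CPM in homeostatic cells. The epithelial markers summed to 34.2 CPM in myoblasts, with 2 of 6 at 0, against 0.305 and 0.690 CPM in homeostatic cells, beside the higher Itga3, Itgb4, Itgb6 and Lamb3. The part of these lists in the member values was not tested.

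**Figure D3:**
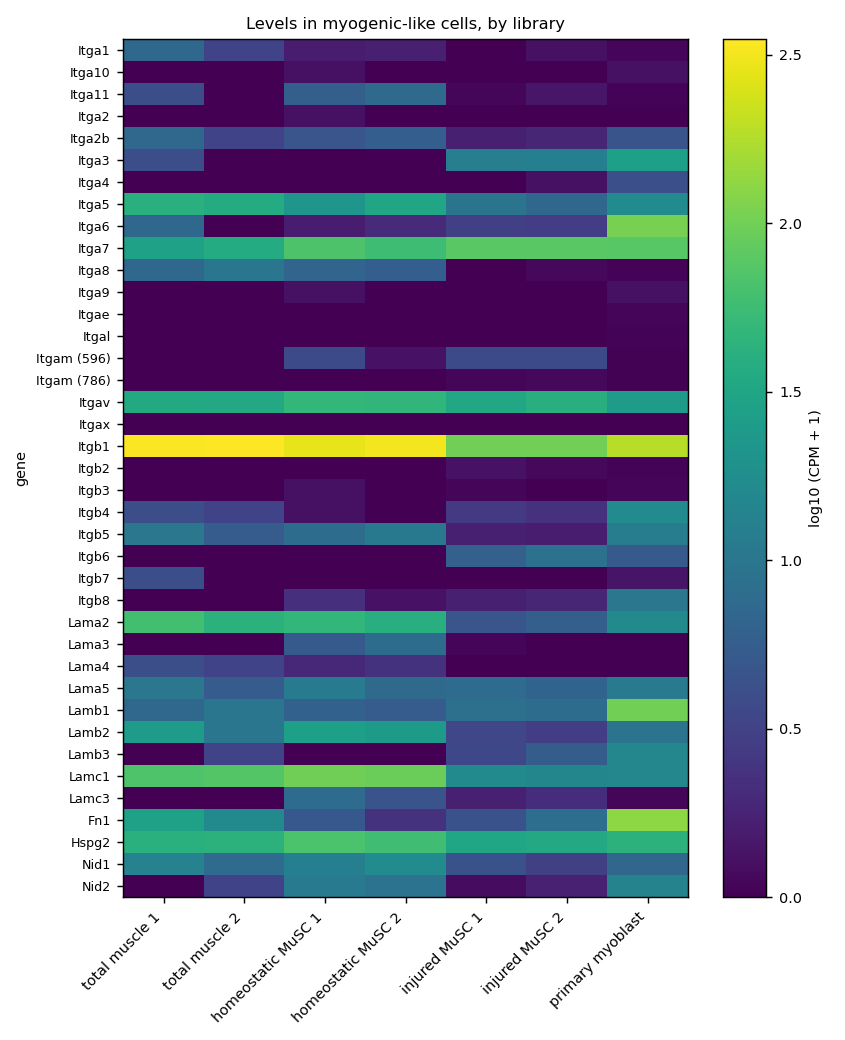
Level of the member rows, 1 left out (vertical), in the myogenic-like cells of the 7 libraries (horizontal), as log10 of CPM plus 1, with integrin alpha, integrin beta and laminin rows in blocks and Fn1, Hspg2, Nid1 and Nid2 last; the Itgam rows carry the last digits of their identifiers. Itgb1 is bright in every library, at 100.2 CPM or more, and Itga6, Lamb1 and Fn1 are bright in the myoblast column.

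The 4 lists had medians of 0.74, 0.36, -0.81 and -1.36 on the log2 scale against homeostatic and 0.60, 0.94, 3.23 and -0.31 against injured cells, in the order below, beside 0.19 over all genes in both. Their counts stand beside the shares of all genes given above for each comparison. Of 25 intracellular adhesion genes, 15 were higher than in homeostatic cells and 7 lower: Zyx (zyxin) rose from 71.6 to 369 CPM, while Fermt2 (93.4 CPM), Actn4 (201 CPM) and Tln2 (39.8 CPM) fell. Against injured cells, 15 rose, among them Zyx, Vasp, Actn1 and Flna, and 4 fell. Of 19 other receptor genes, 7 rose and 6 fell against homeostatic cells, with Rpsa higher and Sntb2, Dag1 and Utrn lower, and 10 rose and 3 fell against injured cells, with Utrn higher and Rpsa, Dag1 and Large lower. Of 13 other basement membrane genes, 4 rose and 7 fell against homeostatic cells. Sparc reached 1274 CPM, Npnt (nephronectin, a ligand of Itga8) 111 CPM and Col18a1 81.7 CPM, all higher, and Col4a1 (40.3 CPM) was lower. Against injured cells 8 of them rose, including those 4, and the other 5 were not called. Of 13 other ligands, 6 rose and 7 fell against homeostatic cells. Spp1 reached 20450 CPM from 2.93, and Vcam1, Cyr61 and Ctgf were lower. Against injured cells 6 rose and 5 fell, with Spp1 and Cyr61 higher and Thbs1 and Vcam1 lower.

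Within injured muscle, cells with a UMI of Myog, the differentiation factor, were set against those without, blocked by library. Only Itgb6 was called among 13 tested members, at 11.1 CPM on average with and 5.46 CPM without Myog (log2 difference 1.02 ± 0.35 SE, adjusted p = 0.046), beside 4.76% of 9152 genes called higher (7.26% in either direction). Every one of the 9 alternatives ended that call (adjusted p from 0.052 to 0.9997). By edgeR, 0 members were called lower, beside 2.49% of genes, with 2 at an unadjusted p under 0.05 and none in DESeq2. Of the lists, Vasp, Zyx, Dag1, Sgca and Thbs1 were called higher and Spp1 lower in the cells with Myog, and Sparc and Ntn4 were not called.

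In total muscle the members parted by cell type. Clustering these 2 libraries alone, without the members, gave 11 named types with at least 20 cells in each library. No member had its highest mean level in the myogenic-like or mature myofibre-like cells, the highest types of 7.22% and 10.8% of 16687 genes with at least 10 UMIs. The highest level lay in fibro-adipogenic-like cells for 8 members, glial-like for 7, mural-like and epithelial-like for 5 each, tenocyte-like and macrophage or monocyte-like for 4 each, B-like and T or NK-like for 3 each and endothelial-like for 1. Over all of these genes the share was 5.18% for fibro-adipogenic-like, 12.5% for glial-like, 9.30% for mural-like, 12.8% for epithelial-like, 4.63% for tenocyte-like and 7.10% for macrophage or monocyte-like cells. It was 12.6% for B-like, 8.46% for T or NK-like and 9.46% for endothelial-like cells. For 27 of 40 members the 2 libraries of the highest type lay above both of the next, beside 43.8% of all genes. Epithelial-like cells numbered 21 and 25.

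The mural-like and glial-like groups depended on the clustering. The 64 and 72 mural-like cells held 11 endothelial markers at a sum of 12140 and 11690 CPM, against 29840 and 29990 CPM in endothelial-like cells, with Pecam1 at 517 and 392 CPM and Cdh5 at 371 and 358 CPM. Clustering of all 7 libraries put 30 and 41 of them in the mural-like type, and in those the endothelial sum was 2092 and 1540 CPM and the sum of 9 mural markers 17070 and 14180 CPM, against 11930 and 10790 CPM before. Of 46 glial-like cells per library, 21 were glial-like in both clusterings, and these held the 10 myogenic markers at 3266 and 2410 CPM. Over all 46 that sum was 1463 and 1332 CPM, of which Sdc4 gave 1403 and 1254 CPM. Sdc4 was also at 1196 and 1104 CPM in tenocyte-like cells. Of the fibro-adipogenic markers, the 46 held Dcn at 12300 and 10210 CPM, against 19100 and 19670 CPM in fibro-adipogenic-like cells. Pi16 was at 71.6 and 84.0 CPM, against 1748 and 1827 CPM. In total muscle 1, Col1a1 and Col3a1 were higher in glial-like (4471 and 2406 CPM) than in fibro-adipogenic-like cells (1698 and 2282 CPM). In total muscle 2 they were lower (612 and 384 CPM against 1674 and 2169 CPM). The other fibro-adipogenic markers were lower in glial-like cells in both libraries. Members were therefore also measured in the cells that both clusterings put in a type, a choice made after seeing these markers. There 33 of 40 members had the same highest type.

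Fibro-adipogenic-like cells, the resident mesenchymal progenitors, led 8 members, among them basement membrane genes. Nid1 measured 537 and 518 CPM there against 137 and 174 CPM in the next type, Lamc1 240.0 and 231 CPM, Hspg2 233 and 230 CPM, Lama2 182 and 175 CPM and Lamb1 126 and 145 CPM. Itga5 (270.0 and 277 CPM) and Itga11 (50.2 and 40.4 CPM) were highest there too. Lama4, an endothelial and adipocyte laminin chain, was level between fibro-adipogenic-like (103 and 108 CPM) and endothelial-like cells (111 and 98.8 CPM), whose libraries overlapped. Fn1 overlapped between tenocyte-like (568 and 594 CPM) and fibro-adipogenic-like cells (612 and 547 CPM), and which came first changed when doublets were kept. Tenocyte-like cells led Itgb5 (242 and 211 CPM), Itga10 (17.4 and 18.3 CPM) and Itga8 (15.1 and 38.6 CPM).

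Mural-like cells led 5 members and endothelial-like cells 1. Mural-like cells led Itgb1 (942 and 907 CPM), Itga1, a collagen IV receptor subunit (167 and 143 CPM), and Itga7 (183 and 94.1 CPM). Itga7 was next in glial-like (65.7 and 66.0 CPM) and then in myogenic-like cells (25.9 and 37.9 CPM), so the receptor of the MuSC was not highest in myogenic cells here. In the 30 and 41 cells mural-like in both clusterings, the 3 subunits were higher still, at 1198 and 1177 CPM for Itgb1, 243 and 196 CPM for Itga1 and 318 and 177 CPM for Itga7. Endothelial-like cells led Itga6 (216 and 247 CPM), overlapping with glial-like cells (21 and 50 UMIs). In cells placed alike by both clusterings, glial-like cells held 0 and 6 Itga6 UMIs. Endothelial-like cells (215 and 251 CPM) there lay above the next type, epithelial-like (141 and 159 CPM). Lama5 overlapped between mural-like, epithelial-like and endothelial-like cells, at 31.0 to 41.4 CPM. Itgb4 was highest in glial-like cells (149 and 294 CPM), as were Itgb8 and Nid2. In the glial-like cells of both clusterings Itgb4 had 3 UMIs in each library (54.4 and 53.2 CPM) and overlapped with epithelial-like cells. Lamb2 overlapped between glial-like, mural-like, tenocyte-like and fibro-adipogenic-like cells.

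Epithelial and immune cells held the remaining subunits. The members highest in epithelial-like cells included Itgb6 (2 and 10 UMIs), Itga2 (5 and 9 UMIs), Itga3 (3 and 10 UMIs, overlapping with endothelial-like cells) and Itgav (141 and 143 CPM). Macrophage or monocyte-like cells led Itgb2, the leukocyte beta subunit (252 and 320 CPM), Itgam (115 and 99.6 CPM for the main row) and Itgax (38.5 and 36.7 CPM). T or NK-like cells led Itgal (46.5 and 38.9 CPM), Itgb7 (129 and 145 CPM) and Itgae (14 and 6 UMIs). B-like cells led Itga4 (62.9 and 100.1 CPM), overlapping with macrophage or monocyte-like cells, Itgb3, and also Lamb3 (142 and 120.1 CPM), with T or NK-like cells next (35.7 and 31.7 CPM). The annotated Lamb3 gene runs from 193207699 to 193343878 on chromosome 1 (GENCODE M21, GRCm38), far upstream of the RefSeq start shown above, and which transcript gave the B-like counts was not tested. Lama3 and Lamc3 were too sparse to order, at no more than 11 UMIs in any type and library.

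**Figure D4:**
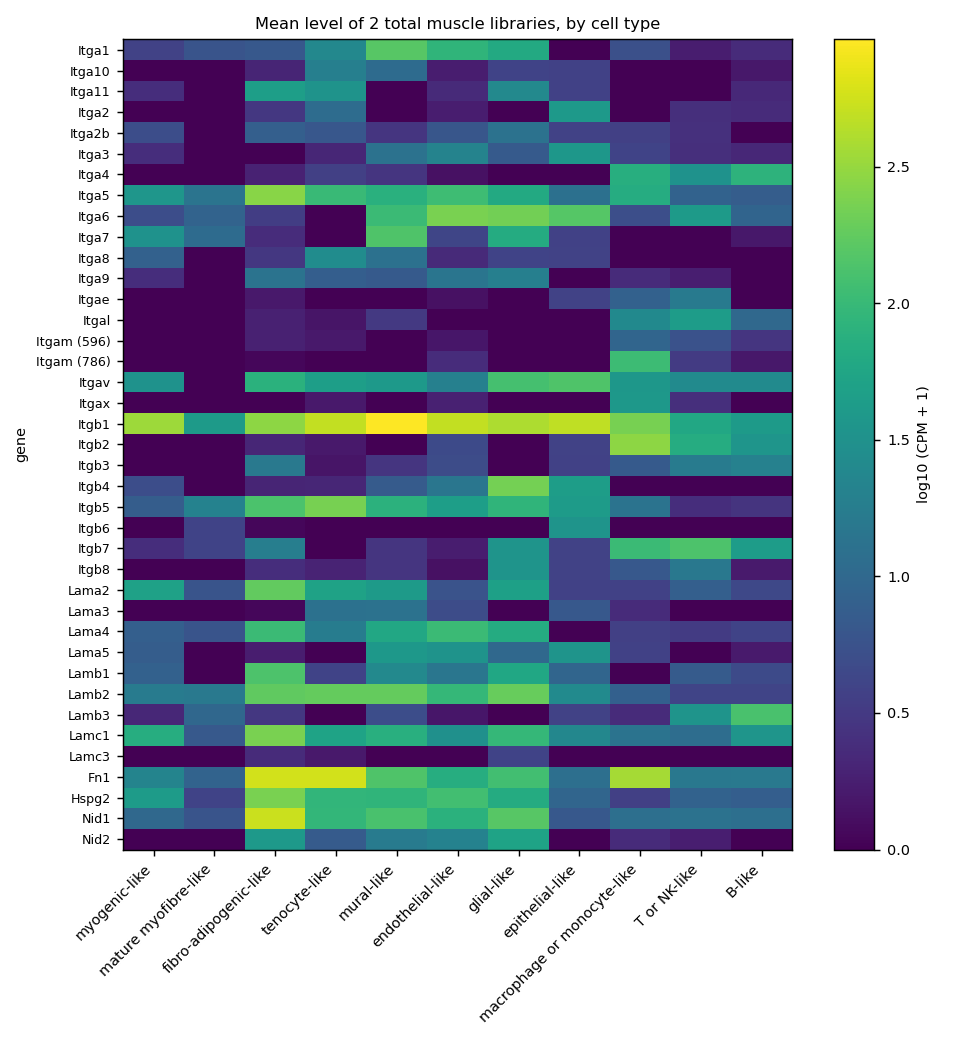
Mean level of the member rows, 1 left out (vertical), in 11 cell types of total muscle (horizontal), as log10 of the mean CPM of 2 libraries plus 1. Nid1, Fn1 and Lamc1 are brightest in mesenchymal types, Itgb1 is highest in mural-like cells at 925 CPM, and Itgb2 and Itgam are bright in macrophage or monocyte-like cells.

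Tests between types, in 1 fit blocked by library, set myogenic-like cells against 3 neighbours. The myogenic-like type of this fit, from clustering total muscle alone, held 93 and 128 cells. In total muscle 1 it held the haemoglobin genes Hbb-bs and Hba-a1 at 25320 and 14400 CPM, against 51.3 and 8.92 CPM in total muscle 2. The part of this in the results was not tested. Against fibro-adipogenic-like cells, 2 of 28 tested members were higher (13.6% of 8707 genes) and 15 lower (26% of genes), with 39.6% called in either direction. Itga7 was 18.3-fold higher in myogenic-like cells (31.9 against 1.36 CPM, adjusted p = 1.09e-07) and Lama5 6.03-fold higher on 5 UMIs in each. The Itga11 call, lower on 1 UMI against 297, was lost in DESeq2. Nid1 was 69.7-fold lower, Fn1 34.0-fold, Itgb5 24.2-fold, Lamb1 21.1-fold and Lama2 4.41-fold lower, and Itgb1 did not pass (337 against 288 CPM). The larger of these folds rest on few myogenic UMIs. In the 90 and 127 cells of the joint clustering, Nid1 had 4 and 3 UMIs and Fn1 9 and 7. There Itgb5 had 3 and 2, Lamb1 2 and 4 and Lama2 19 and 19. The medians were -2.77 over tested members and -0.36 over all genes.

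Against endothelial-like cells, 3 members were higher (17.8% of genes) and 12 lower (29.3%, or 47.1% in either direction). Lama2 (48.5 against 4.74 CPM), Itga7 (31.9 against 3.19 CPM) and Lamc1 (69.0 against 29.9 CPM) were higher in myogenic-like cells. Itga6 was lower on 3 UMIs against 552, with a ratio of 0.0161 (exact 95% interval 0.00331 to 0.0472), and Itga1 on 2 against 208. Against mural-like cells, 13 members were lower (23.4% of genes) and 0 higher (15% of genes, or 38.4% in either direction), with none higher at an unadjusted p under 0.05 in edgeR and none called by DESeq2. Itga7 was 3.77-fold lower than in mural-like cells (adjusted p = 2.35e-04), Itgb1 2.50-fold and Itga1 on 2 UMIs against 78. Lama2 and Lamc1 did not pass (log2 differences 0.41 ± 0.43 SE and 0.05 ± 0.34 SE). The calls for Hspg2 and Itga5 against mural-like cells were lost with stricter cells and with no filter on low counts, and that of Itga5 also with no replicate block (adjusted p = 0.059). In cells placed alike by both clusterings, 9 members were lower than in mural-like cells. The calls for Hspg2, Itga6 and Lama5 were lost, and Itga5 turned sign (log2 difference 1.80, adjusted p = 0.16). Itga7, Itgb1 and Itga1 stayed lower there, at log2 differences of -2.64, -1.56 and -6.06.

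The shares of all genes called lower and higher in these 3 comparisons, given above, stand beside the counts of the 4 lists. Of 26 intracellular adhesion genes, 12 were lower and 1 higher in myogenic-like than in fibro-adipogenic-like cells, 16 and 1 against endothelial-like and 20 and 1 against mural-like cells. Crk, Rsu1, Zyx and Pxn were the lower ones with the highest mean levels in the first, Fermt2, Actn4, Crk and Lims2 in the second and Fermt2, Actn4, Tns1 and Flna in the third. Of 12 other laminin receptor genes, 5, 4 and 5 were lower and 2, 3 and 1 higher, with Rpsa higher in all 3 comparisons and Sntb2 and Utrn lower in all 3. Bcam, the Lutheran laminin receptor, was at 5.10 CPM against 267 CPM in endothelial-like and 240.4 CPM in mural-like cells, and Sgce was at 22.3 against 164 CPM in fibro-adipogenic-like cells. Of 8 other basement membrane genes, 5, 5 and 7 were lower. Sparc, Col4a1 and Col4a2 were lower in all 3, Col15a1 had no UMI against 198 CPM in fibro-adipogenic-like cells, and Ntn4 was higher in all 3 (79.4 CPM, against 24.6 in fibro-adipogenic-like, 1.08 in endothelial-like and 27.4 in mural-like cells). Of 14 other ligands, 9, 5 and 8 were lower. Vcam1 was higher in myogenic-like cells in all 3 (774 against 78.5, 467 and 109 CPM), and Icam1 was lower in all 3. Thbs1 was lower than in fibro-adipogenic-like cells, Cyr61 lower than in fibro-adipogenic-like and endothelial-like cells, Ctgf higher than in all 3 other types, and Mfge8 and Vtn lower than in mural-like cells. In the order given, the list medians were -0.78, -0.56, -3.52 and -2.73 on the log2 scale against fibro-adipogenic-like, -1.58, 0.27, -3.46 and -0.41 against endothelial-like and -1.67, -0.85, -3.74 and -2.96 against mural-like cells. Over all genes they were -0.36, -0.34 and -0.19.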

How the data were processed

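For each of 7 libraries (10x 3′ chemistry per the labels' protocols) the authors deposited a matrix of unnormalised whole-number counts. Cell Ranger 2.2.0, Seurat 2.3.4, bcl2fastq 2.17.1 and the build mm10 are listed, with no role, in the submitters' processing notes. The annotation release is not given in the sources used here. Of 15474 barcodes, 15267 passed (at least 200 genes, at most 10% mitochondrial UMIs). Scrublet called 57 cells (0.373%), so the 322 with the highest scores were left out as doublets, at 0.8% per 1000 cells. Cells were clustered in scanpy 1.11.5 (2000 variable genes without the members, 30 components, 20 neighbours, Leiden resolution 1) and clusters named from marker lists. Libraries held 3319283 to 114382567 UMIs. Counts were summed per library and type and tested with edgeR 4.0.16 (quasi-likelihood, TMM, filterByExpr, Benjamini-Hochberg over all genes), and DESeq2 1.42.0 was an alternative. CPM values carry no scaling factors. Calls need an adjusted p under 0.05. Counts cover every member, but 1 member is not reported here by itself. Scripts were tested on simulated data.

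The members and lists were chosen with earlier results of these data known. Every member was eligible to be named, with up to 4 called genes of highest mean CPM per list and comparison, or otherwise the 2 most abundant. Equal replicate numbers did not pair libraries (correlations of deviations -0.04, -0.003 and -0.005). Near-identical ends match the last 300 bases over at least 90 bases at 95% identity (GENCODE M21).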

Additional observations from a re-analysis of the deposited data

How the results depend on the processing

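Across all settings, 2385 values of single members kept their side of the threshold, 65 lost a call and 28 gained one. Counts within 1.5 times are not repeated. Members called higher after injury numbered 6, but 3 without scaling factors and 3 with sums thinned to the smallest library; leaving out 1 library gave 4 to 8 higher and 14 to 15 lower. For homeostatic MuSCs against total muscle, members called lower numbered 0 with all filtered cells and 0 with thinned sums, and cell-by-cell gating gave 14 lower and 1 higher; leaving out 1 library gave 0 to 1 lower and 0 to 1 higher. Gating, which took in 216 and 275 total muscle cells in place of 90 and 127, turned the sign for Itgb5 (-3.60), Lamb2 (-2.19) and Nid1 (-3.36), and for Lamb1 (-1.49) in injured MuSCs against total muscle, where it gave 18 lower. The share of all genes called was not counted for gated cells. Injured MuSCs against total muscle gave 1 higher and 3 lower with thinned sums, and 1 to 3 higher and 4 to 6 lower without 1 library. Primary myoblasts against injured MuSCs had 3 lower without scaling factors and 3 with thinned sums, and 10 to 13 higher and 5 to 6 lower without 1 library; against homeostatic MuSCs leaving out 1 gave 9 higher and 13 to 14 lower. The single Myog call fell to 0 in every alternative run. The causes were not tested. With the replicate block, injury gave 6 higher and 15 lower, and the block changed no other count between groups. No fit without 1 library was possible for cell types or the Myog split, since no residual degrees of freedom remain. Depth limits total muscle most, where 3 UMIs equal 9.30 and 6.69 CPM. Of 40 members, 39 kept their highest cell type with doublets kept, 40 with stricter cells or Leiden resolution 2, and 33 in cells placed alike by both clusterings, where Itga5 turned sign against mural-like cells (1.80).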
